A study of Rattus norvegicus and Mus musculus with 9 samples.

Results

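The Ifitm genes encode interferon-induced transmembrane proteins, and 3 of them, Ifitm1, Ifitm2 and Ifitm3, were followed through 3 kinds of cultured cell: embryonic stem (ES) cells of rat, ES cells of mouse, and rat fibroblasts taken from embryos. Members were taken by their gene symbol in the platform annotation, with the probe set of highest mean signal kept for each symbol. All 3 were measured in both tables, among 14506 named rat genes and 19938 named mouse genes. The genes were chosen by their signals in rat ES cells and fibroblasts and their percentiles in mouse ES cells, so their values are described here and no test is given for them.

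IFITM proteins are small membrane proteins of the CD225 (dispanin) family that block the entry of many enveloped viruses by acting where viral and cellular membranes fuse. Their genes are textbook interferon targets, but stem cells can express some of them without added interferon, and mouse Ifitm3, also called Fragilis, and Ifitm1 are classic surface markers of early germ cells. IFITM1 protein is found largely at the cell surface, whereas IFITM2 and IFITM3 are found largely in endosomes and lysosomes.

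Gene expression was measured on arrays with 3 samples per group. The rat ES cells and the rat fibroblasts were both of strain DA, the first grown in a medium named 3I and the second derived from embryos and grown in GMEM with 10% FBS. The mouse ES cells came from strain C57/BL6 and were grown in GMEM with 10% FBS and LIF, and feeder cells had been taken away before RNA was made. The name 3I is used for media with inhibitors of the FGF receptor, MEK and GSK3, a combination that holds ES cells undifferentiated. No feeder removal is given for the rat ES cultures, and no group carried a transgene or deletion in the labels. The labels do not say whether the samples of a group were separate cultures, so SDs, SEs and p-values measure the spread between arrays, which may be technical. Cell type and medium cannot be told apart between the rat groups, and species, strain, platform and medium cannot be told apart between rat and mouse.

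Array medians over named genes lay between 6.23 and 6.34 on the log2 scale for the rat table and between 5.25 and 5.26 for the mouse table. Limma called 7 of 7 measured pluripotent cell markers higher in the rat ES cells and 8 of 10 fibroblast markers lower in them. Over all rat genes it called 10.6% higher and 10.1% lower. In the rat ES cells 5 of the 10 fibroblast markers lay below the array median. Above it were Fn1 at mean percentile 99.7, Col1a1 at 95.7, Col1a2 at 87.3, Col3a1 at 78.5 and Postn at 71.9. The summed linear signal of the 10 fibroblast markers was 7845, 8542 and 9255 on rat ES arrays 1, 2 and 3, against 57200 to 60060 on the fibroblast arrays. Fibronectin (Fn1), high in both groups and not called, made up 67.3% to 76.9% of the rat ES sums. Without it, a choice made after seeing the data, the other 9 summed to 1811, 2404 and 3025 on rat ES arrays 1, 2 and 3 and to 46290 to 48660 on the fibroblast arrays. Their part in the signals of the Ifitm genes in rat ES cells was not tested.

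In the rat cells the 3 genes went different ways. Ifitm1 was high in ES cells and near the bottom of the array in fibroblasts. Ifitm3 was above the array median in both and 3.73-fold lower in ES cells, and Ifitm2 differed by only 1.45-fold. In mouse ES cells all 3 genes were among the upper 4% of named genes on every array.

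Ifitm1 had log2 signals of 10.55, 10.54 and 10.31 on the rat ES arrays and of 4.03, 3.59 and 3.95 on the fibroblast arrays. Every rat ES array was far above every fibroblast array, and the closest pair of arrays still differed by 6.29. The means were 10.47 ± 0.133 and 3.85 ± 0.233 (log2 signal, SD, n = 3 each), a log2 difference of 6.61 (SE 0.12), or 97.9-fold. It ranked as number 6 from the top among the 14506 differences. The fibroblast signal lay at percentiles of 10.7 to 15.5 of its arrays and was not separated from background here, so the fold is uncertain in size. Ifitm1 was lowest on rat ES array 3, by 0.24 below the highest array, and this was also the array with the highest fibroblast marker sum, with Fn1 and without it.

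Ifitm3 encodes the family member best known for stopping influenza virus in endosomes. Its log2 signals were 8.51, 8.24 and 8.24 on the rat ES arrays and 10.21, 10.10 and 10.37 on the fibroblast arrays. The groups did not overlap, and the closest arrays were 1.59 apart. The means were 8.33 ± 0.154 in rat ES cells and 10.23 ± 0.140 in fibroblasts (log2 signal, SD, n = 3 each), so that the ES level fell by 1.90 (log2, SE 0.10). Rat ES array 1, which had the highest Ifitm3 signal of the ES arrays, had the lowest fibroblast marker sum, again with Fn1 and without it.

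Ifitm2, a close relative of Ifitm3, had log2 signals of 9.03, 9.21 and 9.17 in rat ES cells and of 9.65, 9.74 and 9.63 in fibroblasts. All 3 rat ES arrays were lower than all 3 fibroblast arrays, by at least 0.42. The means were 9.13 ± 0.096 and 9.67 ± 0.059 (log2 signal, SD, n = 3 each), and the ES level fell by 0.54 (log2, SE 0.08). All 3 members thus had groups that did not overlap, as did 61.5% of all rat genes tested, so nothing about the members is read from it. Over the same genes 20.7% were called different by the rule used below for other genes, a limma Benjamini-Hochberg adjusted p under 0.05 and a difference of at least 2-fold, and 59.7% had an unadjusted p under 0.05. The median SD within a group over all rat genes was 0.107, and the group SDs of the 3 genes ran from 0.059 to 0.233. In these bulk samples, fewer cells that carry a transcript and less of it per cell cannot be told apart.

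**Figure D1:**
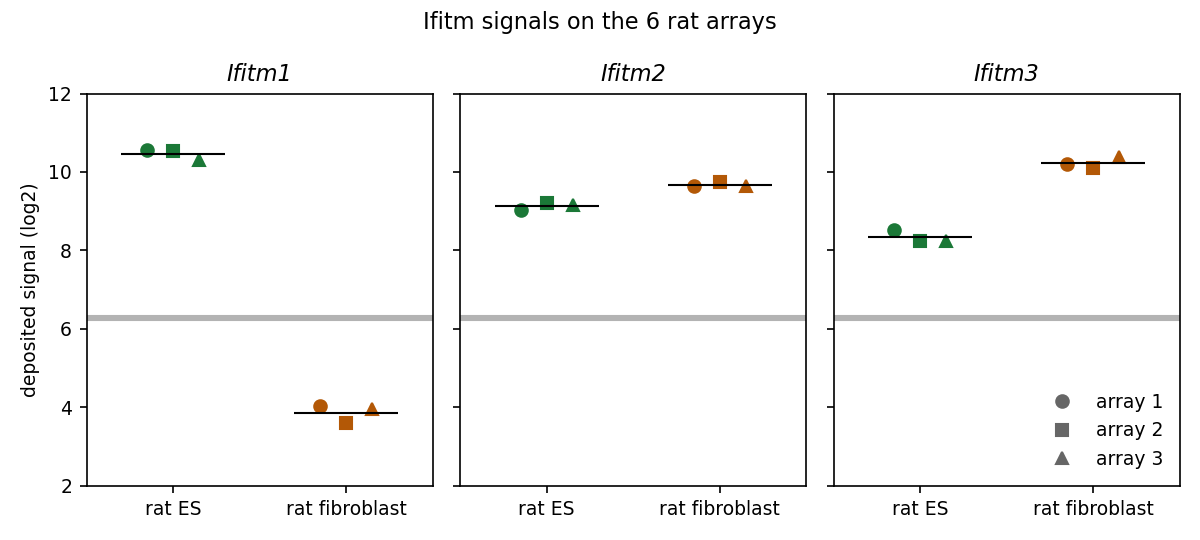
Deposited log2 signal (vertical axis) of Ifitm1, Ifitm2 and Ifitm3 on each of the 6 rat arrays, with points for arrays, black lines for group means and a grey band for the range of the array medians over named genes. Ifitm1 is at 10.31 to 10.55 in rat ES cells and below the grey band in fibroblasts, while Ifitm2 and Ifitm3 are above the band in both groups and lower in ES cells.

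The 3 genes lie in a cluster on chromosome 1 in RefSeq, in the order Ifitm5, Ifitm2, Ifitm1, Ifitm3, Ifitm6. The RefSeq promoter table (GRCr8), which runs from 250 bases before to 50 bases after each gene start, matched 2 of the 3 members, Ifitm2 and Ifitm3. Both windows are shown because only these members had an entry, and no window of Ifitm1, the member higher in rat ES cells, could be searched. Interferon targets often carry a response element close to the start. Capitals mark matches to the core of the interferon-stimulated response element, the sequence bound by STAT and IRF factors after interferon, searched as GAAA, any 2 bases, GAAA, and on the other strand as TTTC, any 2 bases, TTTC. Each is printed 5′ to 3′ on the gene's strand, the minus strand.
Ifitm2, chr1:205482299-205482598: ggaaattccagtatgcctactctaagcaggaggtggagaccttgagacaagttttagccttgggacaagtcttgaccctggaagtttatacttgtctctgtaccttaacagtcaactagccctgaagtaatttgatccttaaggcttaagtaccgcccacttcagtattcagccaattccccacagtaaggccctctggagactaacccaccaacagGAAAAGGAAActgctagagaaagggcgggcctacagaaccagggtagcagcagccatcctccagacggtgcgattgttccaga
Ifitm3, chr1:205541709-205542008: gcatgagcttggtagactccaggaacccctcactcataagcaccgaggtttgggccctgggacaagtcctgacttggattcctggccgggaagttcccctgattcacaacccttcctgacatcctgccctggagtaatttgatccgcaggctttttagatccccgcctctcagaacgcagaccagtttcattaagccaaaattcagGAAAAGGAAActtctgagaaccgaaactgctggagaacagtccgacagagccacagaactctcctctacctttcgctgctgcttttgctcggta

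Both windows held 1 match, the same 10 letters GAAAAGGAAA, beginning 33 bases before the gene start in Ifitm2 and 44 bases before it in Ifitm3. Of 33469 RefSeq promoter windows of 300 bases, 3.92% held a match. The Ifitm3 window also held 1 match to the core of a STAT site, searched as TTC, any 3 bases, GAA, which reads the same on both strands. It was TTCTGAGAA, beginning 33 bases before the start and not overlapping the first match. That motif was in 8.87% of all windows and not in the Ifitm2 window. In a global alignment the 2 windows were identical in 56.5% of columns. The windows of Ifitm5, Ifitm6 and Ifitm10 held no match to either motif, and that of Ifitm7, on chromosome 11, held the same 2 matches as Ifitm3 and was identical to it in 62.7% of columns. The other pairs aligned among the windows of Ifitm2, Ifitm3, Ifitm5, Ifitm6 and Ifitm7 were identical in 41.0% to 50.5% of columns. A match describes the letters only and does not show binding.

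Levels in mouse ES cells were read only as percentiles within each array, since the 2 tables were normalized separately on different platforms. Ifitm1 lay at percentiles 97.2, 97.2 and 96.5 on the rat ES arrays and 96.5, 96.8 and 96.5 on the mouse ES arrays. These ranges overlapped, so no order can be read between the 2 kinds of ES cell, and rat fibroblasts were far below. The mouse range fell below the rat ES range, without overlap, under each of 3 other definitions of the percentile, with a mouse mean of 95.3 against 96.9 among the symbols shared by both tables, for example.

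Ifitm2 lay at percentiles 88.2, 89.8 and 89.5 in rat ES cells, 93.3, 93.7 and 93.2 in rat fibroblasts and 96.3, 96.1 and 96.2 in mouse ES cells. Mouse ES cells were thus above rat fibroblasts and rat ES cells were lowest, with no overlap between neighbours. Ifitm3 lay at percentiles 81.9, 78.0 and 78.1 in rat ES cells, 96.1, 95.6 and 96.7 in rat fibroblasts and 98.9, 98.9 and 98.8 in mouse ES cells. This is the same order, and the low rat ES level sets it apart from the other groups by more than their spread. Neither order changed under the 3 other definitions.

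**Figure D2:**
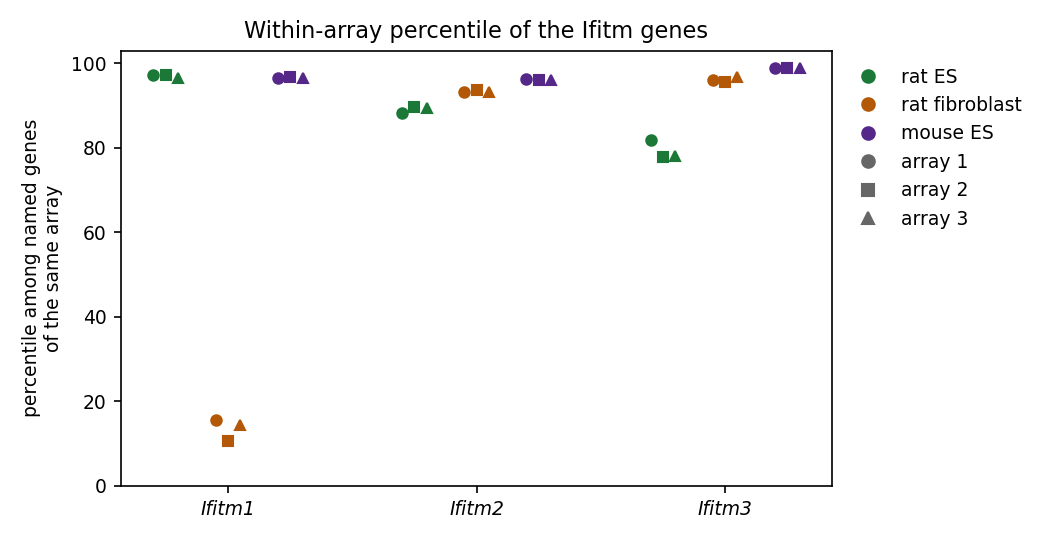
Percentile of each Ifitm gene among the named genes of its own array (vertical axis, 0 to 100), with one point per array coloured by group and shaped by array number. Mouse ES points lie above 96 for all 3 genes, while rat ES points fall to 78.0 for Ifitm3 and rat fibroblast points to 10.7 for Ifitm1.

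The rat table held 1 probe set for each member. On the mouse platform 2 probe sets carried the symbol Ifitm1, with mean log2 signals of 9.34 and 8.48, and 3 carried Ifitm2, with means of 9.24, 8.99 and 8.71, so the probe sets of a gene disagreed by more than the arrays did. RefSeq lists 6 rat pseudogenes named after Ifitm1, Ifitm2 or Ifitm3, and the members are themselves close relatives. How probes common to such copies were treated is not given in the sources used here, so signal shared between Ifitm2, Ifitm3 and their copies cannot be told apart. The mouse arrays also shared many identical values, and Ifitm1 itself had only 2 different values on the 3 mouse arrays. No SD is therefore given for mouse values.

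The other CD225 family genes measured in the rat cells were at low signal. Of 13 listed genes outside the 3 members, 4 were measured in the rat table, all 4 below the array median in both groups. Limma called 0 of them at an adjusted p under 0.05 and 2-fold, with 0 at an unadjusted p under 0.05. Over all rat genes these shares were 20.7% and 59.7%. Ifitm5, the bone-restricted member whose protein is known as BRIL, had log2 signals of 5.21, 5.27 and 5.49 in rat ES cells and 5.56, 5.65 and 5.39 in fibroblasts, which overlap (log2 difference -0.21, SE 0.10, limma adjusted p = 0.115). Trarg1, which takes part in glucose transporter trafficking, differed by 0.11, Prrt1 by -0.06 and Syndig1l by -0.09. On the mouse arrays Ifitm5 lay at mean percentile 39.9, and the percentiles of Ifitm6, Ifitm7 and Ifitm10 lay between 21.3 and 40.1. In rat ES cells the 3 members were above Ifitm5, the only other Ifitm gene measured there. In mouse ES cells they were above Ifitm5, Ifitm6, Ifitm7 and Ifitm10. The members were chosen by these values, so their place above these genes is a description only. In rat fibroblasts Ifitm1 was below Ifitm5.

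No measured gene beside the cluster had a difference near that of Ifitm1. As Ifitm1 ranked number 6 from the top among the 14506 differences, few genes anywhere did, so nothing about the locus is read from it. Over all 14506 rat genes, limma called 10.6% higher and 10.1% lower in rat ES cells, and of 13 measured among the 16 nearest named genes limma called 2 higher and 1 lower. The glycosyltransferase gene B4galnt4, beyond Ifitm6, was higher by 2.35 (log2, SE 0.09, limma adjusted p = 1.03e-07), with log2 signals of 8.17, 8.11 and 7.92 in rat ES cells and 5.60, 5.79 and 5.76 in fibroblasts. Sigirr, an inhibitor of interleukin-1 receptor signalling, was higher by 1.18 and the ribonuclease inhibitor gene Rnh1 lower, at -1.03. Rnh1 lost its call, at -0.96, after median centring and at -0.997 without rat ES array 1. Among the others, Sirt3, a mitochondrial deacetylase gene, lay just under 2-fold at 0.95 and was called at 1.01 after quantile normalization, 1.02 after median centring, 1.06 without rat ES array 1 and 1.03 without fibroblast array 3.

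Psmd13 differed by 0.61, Pkp3 by 0.41, Ric8a by 0.26, Hras by 0.06, Nlrp6 by 0.03, Ptdss2 by -0.03, Cox8b by -0.33 and Bet1l by -0.49. None of these 8 was called by limma. Between Ifitm5 and Ifitm3 alone, the log2 difference went from -0.21 through -0.54 and 6.61 to -1.90.

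**Figure D3:**
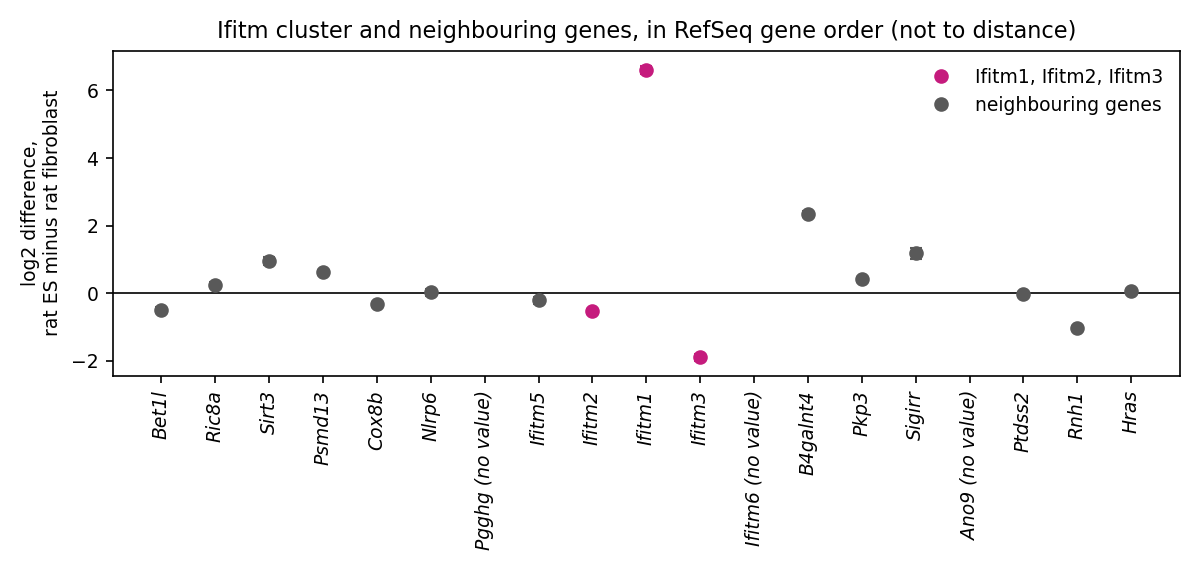
Log2 difference between rat ES cells and rat fibroblasts (vertical axis; bars are the SE of limma, mostly smaller than the points) for the Ifitm genes and up to 8 named genes on each side, in RefSeq gene order and not to distance. Ifitm1 stands at 6.61 between Ifitm2 at -0.54 and Ifitm3 at -1.90, and B4galnt4 at 2.35 is the highest neighbour.

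The interferon pathway, which can induce these genes, was next read from the ligands down. Limma called 0 of 4 measured interferon ligand genes, and all 4 were under the array medians of either rat group. Of them 1, Ifng, had an unadjusted p under 0.05, with a log2 difference of -0.19. Of 16 receptor and signalling genes, limma called 4 lower and 0 higher in rat ES cells, against 10.1% and 10.6% of all genes. The list's median log2 difference was -0.23, against -0.00 over all genes (12 of the 16 had an unadjusted p under 0.05, as did 59.7% of all genes). The kinase encoded by Jak1 serves the interferon receptors. Jak1 had log2 signals of 8.18, 8.36 and 8.35 in rat ES cells and 9.80, 9.93 and 9.85 in fibroblasts. It was lower by -1.56 (SE 0.08, limma adjusted p = 4.63e-07). Irf2, a transcription factor that competes at interferon elements, differed by -1.52 but had a signal under the array median in either group. The interferon gamma receptor gene Ifngr1 differed by -1.15 and Il10rb, a receptor chain for interferon lambda and interleukin-10, by -1.04. Il10rb was under 2-fold after median centring and without rat ES array 1, at -0.97 in both.

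The other receptor chains and the factors of the ISGF3 complex differed less. Ifnar1 differed by -0.22, Ifngr2 by -0.38, Stat2 by 0.36 and Irf9 by -0.82, and none was called. Mouse ES cells had Ifnar1 at percentile 71.4, Ifngr2 at 71.7 and Stat2 at 58.3, against 72.2, 77.0 and 61.2 in rat ES cells. Without rat ES array 1, Socs3, a suppressor of cytokine signalling named after its value was seen, was called higher at 1.04 against 0.90 with all arrays, the one gene of the list so called.

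Of 40 measured interferon-stimulated genes, limma called 4 higher and 4 lower in rat ES cells, shares of the list close to those of all genes, with a median difference of -0.02. Most of them, 29 of the 40, were under the array median in each rat group. The largest differences were in Lgals3bp, a secreted glycoprotein gene (-3.06), Dhx58, an RNA sensor of the RIG-I family (1.67), Ifit2, an RNA-binding inhibitor of translation (-1.54), and Ifi27 (-1.45). The other called genes, named after their values were seen, were Gbp2 (1.43), Dtx3l (1.26) and Trim25 (1.13) on the higher side and the MHC class I light chain gene B2m (-1.33) on the lower side. For 34 interferon-stimulated genes measured in both species, 10 were above the 50th percentile in mouse ES cells, 8 in rat ES cells and 7 in rat fibroblasts. In both kinds of ES cell the Ifitm members lay above most of this list. The members were chosen by these values, so this is a description only.

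**Figure D4:**
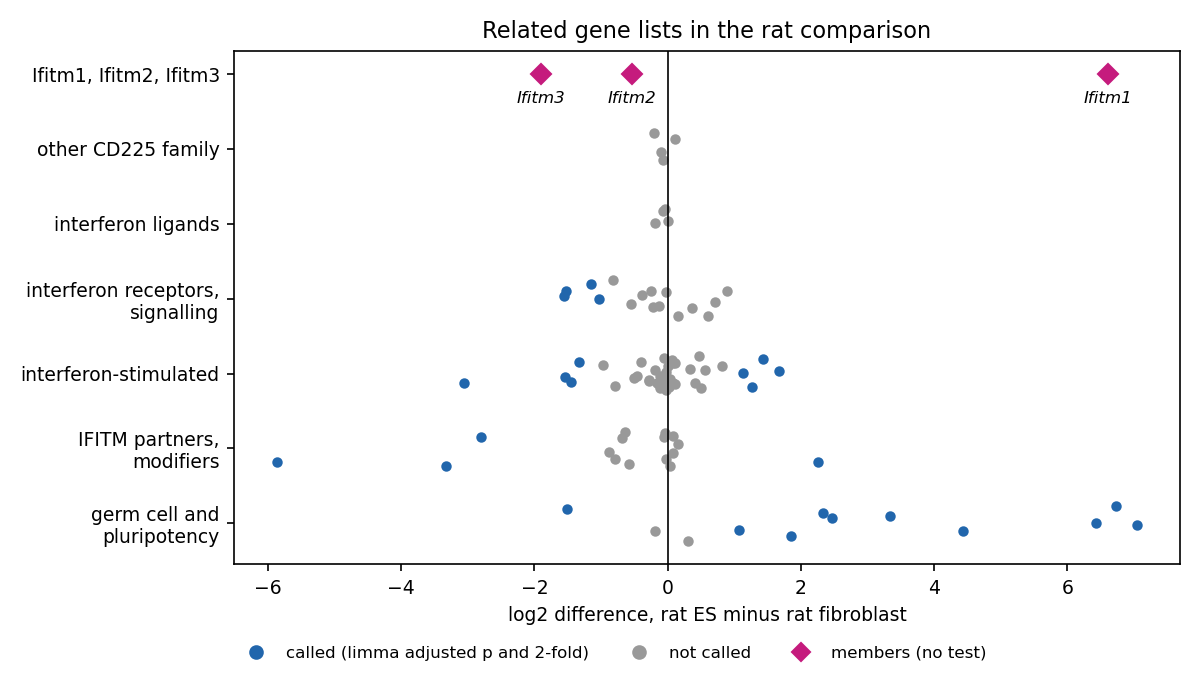
Log2 difference between rat ES cells and rat fibroblasts (horizontal axis) for the 3 Ifitm members (diamonds, not tested) and for each measured gene of 6 related lists, blue where limma called the gene and grey where it did not; vertical scatter within a list has no meaning. The other CD225 family genes and the ligands sit near 0, and only the germ cell and pluripotency list has genes as far to the right as Ifitm1.

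IFITM proteins sit in membranes with tetraspanins and are modified by palmitoylation, methylation and ubiquitin, and of 16 such partner, modifier and trafficking genes limma called 1 higher and 3 lower in rat ES cells (9 had an unadjusted p under 0.05). Over all genes 20.7% were called and 59.7% had an unadjusted p under 0.05, so the counts are near the background. The tetraspanin gene Cd9 had log2 signals of 10.98, 10.96 and 11.02 in rat ES cells and 8.74, 8.77 and 8.68 in fibroblasts, higher by 2.25 (SE 0.06, limma adjusted p = 2.26e-08). Cd81, the tetraspanin that pairs with IFITM1 in surface complexes of lymphocytes, was lower in rat ES cells at -2.80 but high in both groups, with mean log2 signals of 9.06 and 11.86. Cav1, the caveolin gene, was lower at -5.86 and Setd7, a lysine methyltransferase gene whose product methylates IFITM3, at -3.32. Both lay below the array median in rat ES cells. In mouse ES cells Cd9 was at percentile 97.4 and Cd81 at 98.7, against 98.2 and 88.4 in rat ES cells.

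Of 12 measured primordial germ cell and pluripotency genes, limma called 9 higher and 1 lower in rat ES cells. The shares over all rat genes were 10.6% higher and 10.1% lower. The median log2 difference of the list was 2.41. This list was chosen with results of these samples known and is no independent evidence of its direction. Pou5f1 (7.04), Nanog (6.73), Dppa3 (6.43) and Sox2 (4.44) differed most. The other 5 called higher, outside the rule for named genes, were Tfap2c (3.34), Ddx4 (2.47), Alpl (2.34), Kit (1.85) and Dazl (1.06). Dazl was under 2-fold, at 0.91, without rat ES array 1, and its signal was under the array median in either group. Nanos3 (0.31) and Dnd1 (-0.19) were not called and were also under the array median in either group. Prdm1, the germ cell regulator gene, was the one called lower, at -1.51, with signals under the array median in either group. All 12 lay below the array median in fibroblasts, and 4 of the 12 did so in rat ES cells too.

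The patterns most like each member were found from the distance between signals over the 6 rat arrays, each gene centred on its own mean. Nearest to Ifitm1 were the aldo-keto reductase gene Akr7a3 at a root mean square distance of 0.104, Tcl1a, a coactivator gene of AKT, at 0.149, Nanog at 0.246, Dnmt3l, a cofactor gene of DNA methyltransferases, at 0.253 and Dppa3 at 0.255. Akr7a3 had log2 signals of 11.03, 10.96 and 10.85 in rat ES cells and 4.50, 4.00 and 4.15 in fibroblasts. Its lowest rat ES and lowest fibroblast values fell on the same arrays as those of Ifitm1. Akr7a3 was picked for its likeness over these same arrays, so nothing is read from that match. Of these genes measured in mouse ES cells, Nanog lay at percentile 96.9 and Dnmt3l at 99.4, near Ifitm1 at 96.6, and Dppa3 only at 59.4.

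Nearest to Ifitm3 were Cd276, an immune checkpoint gene, at 0.065, Lix1l at 0.067, Ttpal at 0.072, B4galt2 at 0.085 and Cavin1, which shapes caveolae, at 0.096. In mouse ES cells, where Ifitm3 was at percentile 98.9, the measured ones were lower, with Cd276 at 81.0, Cavin1 at 66.3 and Lix1l and Ttpal both at 51.3. Nearest to Ifitm2 were the tight junction gene Tjp1 at 0.016, the heparan sulfatase gene Sulf2 at 0.023, the lysosomal acid phosphatase gene Acp2 at 0.024, the MHC class I gene RT1-N3 at 0.027 and Strn at 0.029. Differences as small as that of Ifitm2 are common, and after quantile normalization only 2 of its 5 nearest genes remained, against 5 of 5 for Ifitm1 and 4 of 5 for Ifitm3. With 2 groups, such a distance mostly follows the group difference and says nothing of shared control.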

How the data were processed

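RNA was labelled as biotinylated single-stranded DNA and hybridized to arrays, 1 sample each, per the labels' protocols. Log2 signals, 1 for each probe set and array, were deposited as a rat table of 6 arrays and a mouse table of 3. The scale was read from the range of the values, and how the authors corrected background, normalized and summarized probes is not given in the sources used here. Values were used without further normalization. Probe sets were named through the supplied platform annotation. Of 29215 rat probe sets, 15310 had 1 gene symbol, 323 several and 13582 none listed; of 35557 mouse probe sets, 21789 had 1, 1621 several and 12147 none listed. Those with several or none were left out, and 0 of them with several symbols named an Ifitm gene. For each symbol the probe set with the highest mean was kept.

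The rat groups were compared over 14506 genes with limma 3.58.1 in R 4.3.3 (lmFit, eBayes, group only; Benjamini-Hochberg). The call needed both an adjusted p under 0.05 and an absolute log2 difference of 1 or more. On simulated data with 200 of the 14506 genes changed by 2.83-fold or 8-fold, 100% of the changed genes were called and 0 others. Both sizes lie above the 2-fold rule, so the simulation checks that the fit runs and says nothing about genes near 2-fold. The members, the 7 gene lists, the 4 marker lists and the settings were chosen with earlier results of these data known. Named genes are the members, all measured CD225 family and neighbouring genes, the 4 called genes of largest difference in each other list, 6 measured genes of the interferon signal (Jak1, Stat2, Irf9, Ifnar1, Ifngr1, Ifngr2) and the 5 nearest genes of each member. Percentiles are among the named genes of an array.

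The labels name no pairing of the rat groups, and array numbers were given none. Same-numbered rat ES and fibroblast arrays had deviations from their group means that correlated at -0.00044, 0.031 and -0.00030 over genes. These values cannot show whether same-numbered arrays shared a culture or batch. Pairs of mouse arrays shared 16691 to 20845 identical values of 35557, and pairs of rat replicates at most 30 of 29215. On mouse array 1 the 19938 genes took 8406 different values. The mouse arrays were kept apart as 3. Promoters are RefSeq GRCr8 and were aligned with Biopython 1.88; the sources used here do not give the build of the array design.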

Additional observations from a re-analysis of the deposited data

How the results depend on the processing

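The log2 differences of Ifitm1, Ifitm2 and Ifitm3 kept their direction under quantile normalization, median centring, the mean of all probe sets, the replicate block and without each array in turn, with ranges over single arrays left out of 6.48 to 6.70, -0.57 to -0.48 and -1.99 to -1.82. With the replicate block they were 6.61, -0.54 and -1.90, and the block left 1538 genes called higher and 1458 lower, the counts without it, and changed no count of a list. Without a fold threshold 4478 genes passed higher and 3694 lower; of the lists, interferon ligands then had 1 lower, receptors and signalling 4 higher and 8 lower, interferon-stimulated genes 9 and 9, IFITM partners 8 lower and neighbouring genes 6 higher and 3 lower. Median centring left 0 neighbouring genes called lower. Leaving out single arrays gave 2 to 3 neighbouring genes called higher and 0 to 1 lower, and 0 to 1 receptor and signalling genes called higher.

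Percentiles depend on the genes ranked. Among symbols shared by both tables, Ifitm1 was at 6.67 in rat fibroblasts and 95.3 in mouse ES cells, Ifitm2 at 88.2, 92.9 and 94.7 in rat ES cells, rat fibroblasts and mouse ES cells, and Ifitm3 at 98.4 in mouse ES cells. Among all probe sets, Ifitm1 was at 96.3, 19.5 and 94.9 in those groups, Ifitm2 at 90.3, 93.7 and 94.5, and Ifitm3 at 83.1 in rat ES and 97.4 in mouse ES cells. With all probe sets of a symbol averaged, Ifitm1 was at 95.0, Ifitm2 at 95.4 and Ifitm3 at 99.0 in mouse ES cells, and Ifitm2 at 93.7 in rat fibroblasts. Array number limits the precision of every value, and signals below the array median were not separated from background.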

Other observations

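Tetraspanins, the membrane proteins among which IFITM proteins are found, were read as a wider list of 21 measured genes. In rat ES cells 4 were called higher and 9 lower by limma at a Benjamini-Hochberg adjusted p under 0.05 and 2-fold. Over all rat genes 10.6% were called higher and 10.1% lower. The median log2 difference of the list was -0.70. Tspan13 was higher by 3.72, with a mean log2 signal of 10.70 ± 0.080 in ES cells against 6.98 ± 0.151 in fibroblasts (SD, 3 arrays each). Tspan12 (-3.07), Tspan4 (-2.82) and Cd81 (-2.80) were the largest decreases, and Tspan12 lay below the array median in rat ES cells. In mouse ES cells Tspan13 was at percentile 87.5 and Tspan4 at 86.3, and Tspan12 at 13.9.

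Among markers of other cell types, 1 of 6 blood cell markers was called higher in rat ES cells, Laptm5 at 3.87. Of 6 endothelial markers, 3 were called higher and 1 lower, against 10.6% and 10.1% of all rat genes. Pecam1 (4.58), Tie1 (3.00) and Cldn5 (2.05) were higher and Tek (-1.31) lower. Cdh5 and Kdr were not called and, like Tek, lay below the array median in either group. Of the 6 blood markers, 5 lay below the array median in rat ES cells and all 6 in fibroblasts. The summed linear signal of the blood markers was 457 to 537 on rat ES arrays and 159 to 193 on fibroblast arrays. Without Laptm5, left out after its values were seen, the other 5 blood markers summed to 148.4 to 177.4 and 140.4 to 169.4, ranges that overlap. That of the endothelial markers was 1043 to 1135 on rat ES arrays and 189 to 193 on fibroblast arrays, and 553 to 578 and 166 to 172 without Pecam1, the brightest of them in rat ES cells. The part of such cells in the Ifitm signals was not tested.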
